A study of Mus musculus with 7 samples.

Results

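Tubulins are the subunits of microtubules, the hollow filaments that carry transport in axons and separate chromosomes at mitosis. The tubulin isotypes described here are 10 listed mouse genes, of which Tuba1a, Tuba1b, Tuba1c, Tuba4a and Tuba8 encode α-tubulins and Tubb2a, Tubb2b, Tubb3, Tubb5 and Tubb6 encode β-tubulins. Of these, 8 have a probe set that the platform annotation assigns to that gene alone, out of 18194 genes with such a probe set, and the main value of a gene came from whichever of its probe sets had the highest mean log2 signal. Tuba1b and Tuba1c, the remaining 2, are covered by probe sets shared with other genes and enter no count. RNA was hybridized to 7 Affymetrix mouse arrays, 1 for each sample. The adult samples Brain, Liver and Sk_muscle, which is skeletal muscle, were taken from male ICR mice more than 9 weeks old. Ect (ectoderm), End (endoderm) and Pme (paraxial mesoderm) were derived in culture from SK7_ESC, a male ES cell line with a GFP reporter under the Pdx1 promoter, which all 4 cultured samples carry. The labels give the strain as ICR and the sex as male for all 7 arrays. How many mice gave each tissue, and whether the cultured layers were sorted, were points not given in the sources used here.

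An α- and a β-tubulin pair into the dimer from which microtubules grow, and a mammalian genome encodes several isotypes of each, which differ mostly in their carboxy-terminal tails. Some isotypes are made in nearly every cell, others mainly in neurons, muscle or germ cells, so that a tissue is known by the mixture it uses. Tubb3, class III β-tubulin, is a widely used marker of neurons, and Tuba1a is the main α-tubulin of developing neurons. Signals are intensities in the arbitrary scale of the array, and they are compared between arrays for the same probe set but not between genes, because each probe set has its own affinity. Signals under 50 counted as background. A gene was called higher or lower where its signals differed at least 2-fold after values under 50 were raised to 50, and where that was needed for the dimmer signal the ratio is a lower bound. With 1 array in each group there is no replicate check, no spread and no p-value, so precision is limited by how few arrays there are. These are bulk samples, in which fewer cells of a type and less RNA per cell cannot be told apart.

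The labelled identities were checked against marker genes. Above background were 11 of 11 neuron markers in Brain, 7 of 7 measured liver markers in Liver, 8 of 8 muscle markers in Sk_muscle, 7 of 8 neural progenitor markers in Ect, 8 of 8 endoderm markers in End and 8 of 8 pluripotency markers in SK7_ESC. In Pme, 4 of 9 mesoderm markers and 6 of 8 fibroblast markers were above background. Most of the mesoderm markers were thus not above background in Pme, where the summed signal was 1759 for the mesoderm list and 8601 for the fibroblast list.

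The stretch before the start of transcription is shown for 6 isotypes, those that have both a probe set of their own and a RefSeq promoter window, so that each can be set beside its values. Of the 10 genes 8 matched, and Tubb2b and Tubb6 had no entry used here. The 80 bases before the start, from RefSeq on build GRCm38.p6, are written in lower case 5′ to 3′ on the strand of the gene, with matches to TATAA or CCAAT on either strand in capitals.
Tuba1a (chr15:98953502-98953581, minus strand): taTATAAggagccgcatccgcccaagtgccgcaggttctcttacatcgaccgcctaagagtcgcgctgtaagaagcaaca
Tuba4a (chr1:75219295-75219374, minus strand): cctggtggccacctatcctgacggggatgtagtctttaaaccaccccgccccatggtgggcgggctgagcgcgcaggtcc
Tuba8 (chr6:121210654-121210733, plus strand): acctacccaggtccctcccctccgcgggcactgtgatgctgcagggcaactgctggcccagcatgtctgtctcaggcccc
Tubb2a (chr13:34078009-34078088, minus strand): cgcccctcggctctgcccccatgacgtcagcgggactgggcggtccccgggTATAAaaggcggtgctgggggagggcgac
Tubb3 (chr8:123411473-123411552, plus strand): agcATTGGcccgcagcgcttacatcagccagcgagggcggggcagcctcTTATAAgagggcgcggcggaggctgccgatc
Tubb5 (chr17:35838302-35838381, minus strand): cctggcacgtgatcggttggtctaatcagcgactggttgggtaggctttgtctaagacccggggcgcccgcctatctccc
TATAA was found in 3 of the 8 windows, those of Tuba1a, Tubb2a and Tubb3, against 8.74% of 32851 promoter windows of the same length. In Tubb3 the matches on the plus and the minus strand overlap. CCAAT was found in 1 of the 8, Tubb3, against 15.3% of all windows. GGGCGG, the core of a GC box, stood in the windows of Tuba1a, Tuba4a, Tubb2a and Tubb3 (22.1% of all), TGACGTCA, the cyclic AMP response element, in that of Tubb2a (0.992% of all), and CANNTG, the E-box, in those of Tuba1a, Tuba8 and Tubb5 (28.1% of all). In Tuba1a the GGGCGG and CANNTG matches overlap. These searches also covered both strands, and the matches describe letters in a window and not sites in use.

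Tuba1a had its lowest signals in Liver and Sk_muscle. Its signal was 4263 in Brain, 105.7 in Liver and 798.5 in Sk_muscle, against 6124 in Ect, 4866 in End, 4939 in Pme and 3988 in SK7_ESC. Brain and the 4 cultured samples lay within 1.54-fold of each other, and every neighbour in their order lay within 1.24-fold. Sk_muscle was 4.99-fold under SK7_ESC, the next array above it, and Liver was 7.55-fold under Sk_muscle. The identifier of this probe set ends in x_at, which marks probes that can hybridize to other sequences. Close relatives of Tuba1a may therefore contribute to its signal, and how much was not tested. A probe set annotated to Tuba1a and Gm6682 was under background in each array, with its highest signal of 17.2 in End. The probe set annotated to both Tuba1b, an α-tubulin of most cells, and Gm5620 had 3974 in Brain, 1101 in Liver and 1234 in Sk_muscle, against 6617 in Ect, 5859 in End, 5865 in Pme and 6359 in SK7_ESC. It too was lowest in Liver and Sk_muscle, but its highest signal was 6.01-fold its lowest, against 57.9-fold for that of Tuba1a. The identifier of the Tuba1b probe set also ends in x_at, so close relatives may contribute to its signal too. Tuba1c shares both of its probe sets with Gm6682. The brighter, also marked x_at, had 31.2 in Brain, 371.8 in Liver and 55.5 in Sk_muscle, against 180.3 in Ect, 397.7 in End, 192.1 in Pme and 438.5 in SK7_ESC. By this probe set Liver, End and SK7_ESC were highest and Brain was under background. The other was above background in Liver (67.6), End (97.5) and Pme (58.1) alone. It had 45.7 in SK7_ESC, 47.2 in Ect, 30.7 in Sk_muscle and 19.3 in Brain, and so did not put SK7_ESC among the highest.

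Tuba4a ran the other way and was highest in the 3 adult tissues as deposited. This gene encodes an α-tubulin whose tail lacks the terminal tyrosine that most α-tubulins carry. Its signal was 3143 in Brain, 4789 in Liver and 11778 in Sk_muscle, against 94.5 in Ect, 489.6 in End, 140.7 in Pme and 2080 in SK7_ESC. The lowest adult signal, in Brain, was 1.51-fold over SK7_ESC, which stood 4.25-fold over End. After scaling the arrays to the same median, Brain was instead under SK7_ESC, at 2369 against 2512.5. As deposited, End was 3.48-fold over Pme, and Pme and Ect differed by 1.49-fold. A second probe set had the same 3 germ layers lowest, with 1990 in Brain, 1992 in Liver and 7480 in Sk_muscle, against 54.6 in Ect, 155.4 in End, 62.7 in Pme and 661.8 in SK7_ESC. The third stayed under background, with its highest signal of 47.2 in Brain. The range of the main probe set, 124.6-fold from Ect to Sk_muscle, was the widest of the 8 isotypes with the floor of 50.

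Tuba8, a divergent α-tubulin known from muscle and testis, was above background in Sk_muscle, End and Brain. Its main probe set had 54.3 in Brain, 14.6 in Liver and 504.9 in Sk_muscle, against 5.0 in Ect, 191.7 in End, 8.5 in Pme and 19.2 in SK7_ESC. The other had 76.7, 5.3 and 1609 in the 3 tissues and 2.5, 532.1, 13.4 and 2.5 in Ect, End, Pme and SK7_ESC. Both probe sets thus put Sk_muscle first and End second, with Brain just over background and the other 4 arrays under it. In End, 0 of 8 skeletal muscle markers were above background, with a summed signal of 121.5, against 107781 in Sk_muscle; Acta1, the α-actin of skeletal muscle, had 34.8 in End and Mb, myoglobin, 1.8.

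**Figure D1:**
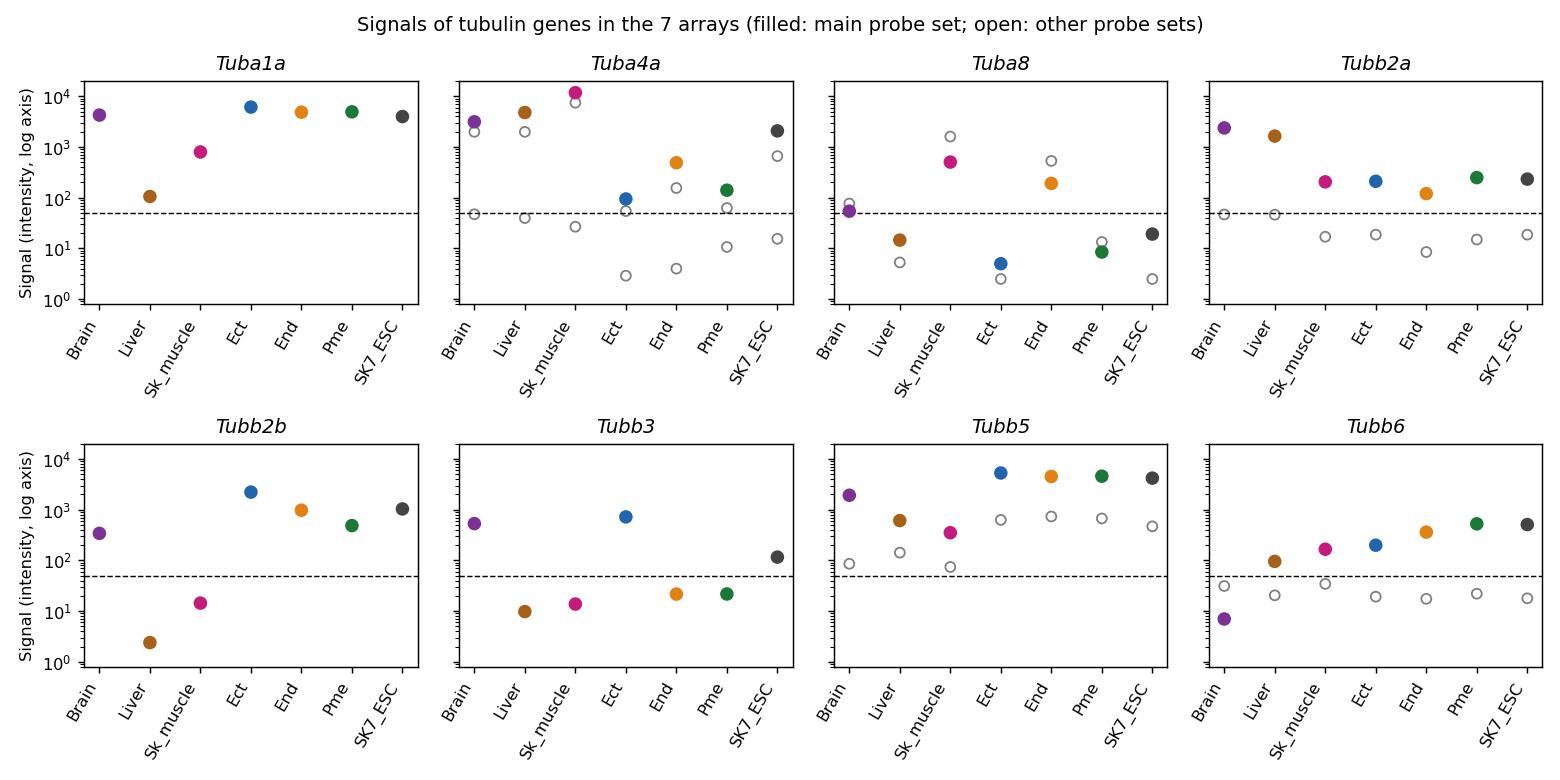
Signal (intensity, log axis) of the 8 tubulin isotypes with a probe set of their own in the 7 arrays, 1 array each, with filled points for the main probe set and open points for the others; signals under 1 would be drawn as 1, and the dashed line is the background of 50. Tuba4a stands between 3143 and 11778 in the adult tissues and between 94.5 and 489.6 in the germ layers, and Tubb3 is above background in Brain, Ect and SK7_ESC alone.

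Among the β-tubulins, Tubb3 was confined to neural samples and ES cells at this background. Its signal was 532.4 in Brain, 9.8 in Liver and 13.8 in Sk_muscle, against 721.2 in Ect, 21.7 in End, 21.8 in Pme and 116.3 in SK7_ESC. Ect and Brain differed by 1.35-fold, Brain stood 4.58-fold over SK7_ESC, and the remaining 4 signals were under background and have no order. A single probe set represents this gene. Summed over 11 neuron markers, the signal was 18651 in Brain, 1004 in Ect and 256.9 in SK7_ESC, with 206.7 in Liver, 343.2 in Sk_muscle, 126.8 in End and 111.1 in Pme. Above background were 11 of them in Brain, 7 in Ect and at most 1 elsewhere. Syp, which encodes the vesicle protein synaptophysin and was under background in Ect, had 1363 in Brain and 28.7 in Ect. Summed over 8 neural progenitor markers, the signal was 1195 in Brain, 9977 in Ect and 3280 in SK7_ESC and at most 430.2 elsewhere. Most of the sum in SK7_ESC was Sox2 alone, at 3030. Above background were 7 of the 8 in Ect, 5 in Brain and 3 in SK7_ESC. The neuron markers were far lower in Ect than in Brain. The part of either cell type in the signal of Tubb3 was not tested.

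Tubb2a and Tubb2b, close relatives that neurons are known to use, had different profiles. Tubb2a had 2376 in Brain, 1641 in Liver and 205.6 in Sk_muscle, against 211.2 in Ect, 120.4 in End, 249.5 in Pme and 232.8 in SK7_ESC. Brain and Liver were apart by 1.45-fold and stood 6.58-fold or more over the other 5 arrays, which lay within 2.07-fold of each other. This rests on a probe set whose identifier ends in s_at, which marks sequence shared by transcripts, and the second probe set was under background in each array, with its highest signals of 46.7 in Brain and 46.3 in Liver. Tubb2b had 342 in Brain, 2.4 in Liver and 14.4 in Sk_muscle, against 2225 in Ect, 977.5 in End, 486.4 in Pme and 1035 in SK7_ESC. All 4 cultured samples were higher than Brain, by 1.42-fold in Pme, and Liver and Sk_muscle were under background. A probe set annotated to Tubb2b and the pseudogene Tubb2a-ps2 had 99.8 in Brain, 14.9 in Liver and 3.6 in Sk_muscle, against 2193 in Ect, 565.5 in End, 270.9 in Pme and 576.6 in SK7_ESC, with the same arrays above background.

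Tubb5, the class I β-tubulin of most dividing cells, was highest in culture. Its signal was 1927 in Brain, 610.8 in Liver and 351.9 in Sk_muscle, against 5295 in Ect, 4518 in End, 4582 in Pme and 4198 in SK7_ESC. The 4 cultured signals lay within 1.26-fold of each other, and SK7_ESC, the lowest of them, was 2.18-fold over Brain. Its second probe set also separated the groups, with 85.9 in Brain, 142.5 in Liver and 74.3 in Sk_muscle, against 629.5 in Ect, 735.9 in End, 672 in Pme and 469.2 in SK7_ESC, but it put Liver and not Brain first among the tissues. Tubb6, the class V β-tubulin, had 7.0 in Brain, 95.7 in Liver and 166.2 in Sk_muscle, against 199.6 in Ect, 361.4 in End, 526.9 in Pme and 509.9 in SK7_ESC. Brain alone was under background, Pme and SK7_ESC were highest and differed by 1.03-fold, and every other neighbouring pair above Brain in the order lay within 1.81-fold. Its second probe set was under background in all 7 arrays, between 17.5 and 34.5.

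Against ES cells, Tuba4a was lower in all 3 germ layers, and the other isotypes called differed from layer to layer. In Ect, 2 of the 8 measured isotypes were higher than in SK7_ESC, against 6.62% of all genes, and 2 were lower, against 4.89%. Tubb3 was 6.20-fold and Tubb2b 2.15-fold higher, while Tuba4a was 22.0-fold and Tubb6 2.55-fold lower. In End, 1 was higher (4.89% of all genes) and 2 were lower (3.81%). Tuba8 was at least 3.83-fold higher, Tuba4a 4.25-fold lower and Tubb3 at least 2.33-fold lower. In Pme, 0 were higher (6.74% of all genes) and 3 were lower (4.55%), namely Tuba4a by 14.8-fold, Tubb2b by 2.13-fold and Tubb3 by at least 2.33-fold. For the 8 isotypes the median log2 ratio to SK7_ESC was 0.17 (Ect), -0.29 (End) and 0.02 (Pme), against 0 over all genes in each. Most genes were under background in each array (between 7810 and 9075 of 18194 were above it), and the floor pulls the median over all genes to 0, so that it is no reference for isotypes above background. Genes under background in every array compared cannot be called either, which lowers the shares of all genes set beside the counts here and below. The comparisons share the SK7_ESC array. Tuba1a, Tubb2a and Tubb5 were called in none of the 3 layers, with ratios between 1.22 and 1.54 for Tuba1a, between 0.517 and 1.07 for Tubb2a and between 1.08 and 1.26 for Tubb5. After scaling the arrays to the same median, Tubb2b was no longer called higher in Ect, at a log2 ratio of 0.88 against 1.10 as deposited, and with the geometric mean of probe sets Tubb6 was no longer called lower there, at -0.62 against -1.35.

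**Figure D2:**
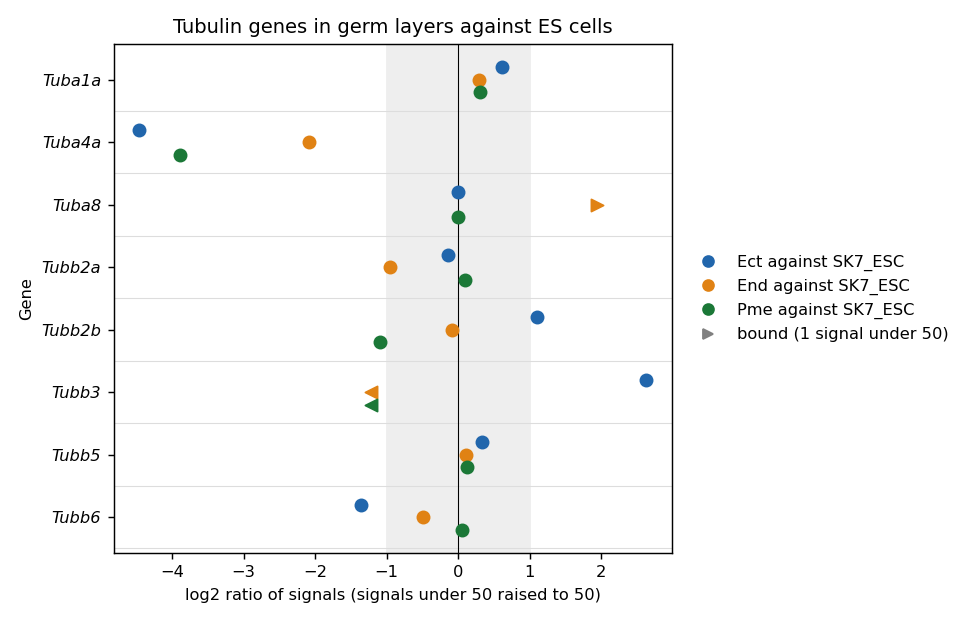
log2 ratio of the signal in Ect, End and Pme to that in SK7_ESC (horizontal axis, signals under 50 raised to 50) for the 8 isotypes in lines, 1 array per sample; triangles are lower bounds of the size of the ratio, points at 0 for Tuba8 have both signals under 50, and the grey band holds ratios under 2-fold. Tubb3 lies at 2.63 in Ect and at -1.22 in End and Pme, and Tuba4a lies under -2 in every layer.

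Between the germ layers, Tubb3 and Tubb2b were higher in Ect, and Tuba8 and Tuba4a were higher in End. Set against both other layers, Ect was higher for 2 of 8, Tubb3 by at least 14.4-fold and Tubb2b by 2.28-fold over the brighter of them, against 1.82% of all genes. Higher in End were also 2 of 8, Tuba8 by at least 3.83-fold and Tuba4a by 3.48-fold, against 1.86%. For Tuba4a this held within its second probe set too, with 155.4 in End, 62.7 in Pme and 54.6 in Ect, but the call was lost with the geometric mean of its 3 probe sets, at a log2 ratio of 0.43 against 1.80. Pluripotency markers had a summed signal of 1232 in End (3 of 8 above background), 140.1 in Ect (0 of 8) and 226.4 in Pme (1 of 8), against 16623 in SK7_ESC (8 of 8). Their sum, like Tuba4a, was thus higher in SK7_ESC and End than in Ect and Pme. The sums in Ect and Pme came mostly from signals under background and have no order. In End, Tdgf1 (773.7), Nanog (299.5) and Pou5f1 (57.3) were above background. The others were under it, among them Dppa5a (17.6, against 5574 in SK7_ESC) and Zfp42 (28, against 3415). The part of the pluripotency markers in the signal of Tuba4a in End was not tested. None was higher in Pme (0 of 8, against 2.06%), and Tubb2b was lower there than in both others, 2.01-fold under End and so just past the rule (1 of 8, against 0.401%). Lower than in both other layers were 0 of 8 in Ect (1.17% of all genes) and 0 of 8 in End (1.33%).

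Among the adult tissues, 4 isotypes were called higher in Brain, 2 in Sk_muscle and 0 in Liver than in both other tissues. Against Liver and Sk_muscle, Brain was higher for 4 of 8, against 10.8% of all genes. These were Tubb3 by at least 10.6-fold, Tubb2b by at least 6.84-fold, Tuba1a by 5.34-fold and Tubb5 by 3.15-fold, and 0 of 8 were lower (4.08% of all genes). For Tubb5 the direction rests on the probe set, since its second had 85.9 in Brain and 142.5 in Liver, and with the geometric mean of both the call was lost, at a log2 ratio of 0.46. Sk_muscle was higher for Tuba8 by 9.30-fold and for Tuba4a by 2.46-fold (2 of 8, against 7.47%) and lower for Tubb2a by 7.98-fold (1 of 8, against 2.62%). For Tuba4a the call was lost after quantile normalization, at a log2 ratio of 0.38, and with the geometric mean of probe sets, at 0.88. In Liver 0 of 8 were higher than in the other tissues (7.71% of all genes), and Tuba1a was 7.55-fold lower (1 of 8, against 4.18%).

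The adult tissues were then set against the cultured germ layer of the same lineage, Brain against Ect, Liver against End and Sk_muscle against Pme. The cultured samples are early and the tissues hold many cell types, so that stage and cell composition cannot be told apart. In Brain, 2 of 8 were higher than in Ect (12.3% of all genes), Tuba4a by 33.3-fold and Tubb2a by 11.2-fold, and 3 of 8 were lower (13.8%), Tubb2b by 6.50-fold, Tubb6 by at least 3.99-fold and Tubb5 by 2.75-fold. Tubb3, Tuba1a and Tuba8 were neither. In Liver, 2 were higher than in End, Tubb2a by 13.6-fold and Tuba4a by 9.78-fold (2 of 8, against 11.3%), and 5 of 8 were lower (16.1%). Tuba1a was 46.0-fold, Tubb2b at least 19.6-fold, Tubb5 7.40-fold, Tuba8 at least 3.83-fold and Tubb6 3.78-fold lower. In Sk_muscle, Tuba4a was 83.7-fold and Tuba8 at least 10.1-fold higher than in Pme (2 of 8, against 11.2%), and 4 of 8 were lower (15.4%), Tubb5 by 13.0-fold, Tubb2b by at least 9.73-fold, Tuba1a by 6.18-fold and Tubb6 by 3.17-fold. Tuba4a was thus higher, and Tubb2b, Tubb5 and Tubb6 lower, in all 3 tissues than in the layer of their lineage. With the geometric mean of both its probe sets, the second of which was under background, Tubb6 was called in none of the 3, at log2 ratios of -0.31 in Brain, -0.67 in Liver and -0.51 in Sk_muscle. The median log2 ratio of the 8 isotypes was -0.48 for Brain, -1.93 for Liver and -0.97 for Sk_muscle, against 0 over all genes, which the floor again holds at 0.

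**Figure D3:**
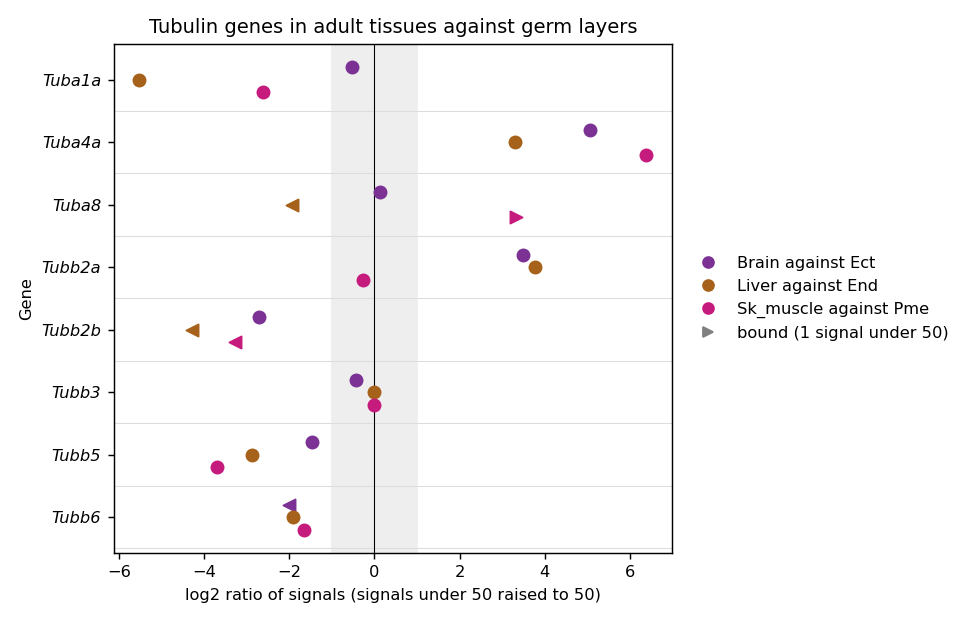
log2 ratio of the signal in an adult tissue to that in the germ layer of its lineage (horizontal axis, signals under 50 raised to 50) for the 8 isotypes in lines, 1 array per sample; triangles are lower bounds of the size of the ratio, the points of Tubb3 at 0 have both signals under 50, and the grey band holds ratios under 2-fold. Tuba4a lies to the right in all 3 comparisons and Tubb2b, Tubb5 and Tubb6 to the left.

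Proliferation markers, like Tubb5, Tubb2b and Tubb6 by their main probe sets, had lower signals in the adult tissues than in the cultured samples. Of 8 measured markers, among them Mki67 and Top2a, 2 were above background in each adult tissue and 8 in each cultured sample. Their summed signal was between 648.2 and 1136 in the tissues and between 10446 and 14378 in the cultured samples. Their part in the signals of Tubb5, Tubb2b and Tubb6 was not tested.

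The other tubulin genes gave 8 with a probe set of their own out of 10 listed. Tubb4b, a β-tubulin of most tissues and of cilia, was nearly level, with 1274 in Brain, 1347 in Liver and 1666 in Sk_muscle, against 1150 in Ect, 1526 in End, 1005 in Pme and 1949 in SK7_ESC, a range of 1.94-fold. Tubb4a, a β-tubulin of neurons and oligodendrocytes, was above background in Brain alone, with 773.8 there and at most 41.9 elsewhere, at least 15.5-fold higher than in Ect. Tubg2, a γ-tubulin, was under background in each array by its main probe set, with at most 27.6, while its other had 120.4 in Brain and at most 11.1 elsewhere. Tubg1, the γ-tubulin that seeds microtubules at centrosomes, had between 169.5 and 204.9 in the tissues and between 287.1 and 426.5 in culture, and was 2.29-fold lower in Brain than in Ect. Tubd1 was highest in Sk_muscle, at 130.2, 2.15-fold over Liver. Tube1, which like Tubd1 acts at centrioles, had between 18.6 and 29.1 in the tissues and between 71.9 and 96.7 in culture. Tuba3b and Tubb1 were under background throughout by their own probe sets.

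Proteins that fold, modify or bind tubulin were counted in the same way. Of 21 genes of tubulin folding, which comprise the chaperonin subunits, prefoldin and the tubulin cofactors, 0 were called in either direction in Ect, End or Pme against SK7_ESC. Of all genes, between 3.81% and 6.74% were called in each direction there. Against the layer of their lineage, 10 of 21 were lower in Brain, 12 in Liver and 3 in Sk_muscle, against 13.8%, 16.1% and 15.4% of all genes. Higher were 0, 0 and 1, against 12.3%, 11.3% and 11.2%. All 21 were above background in at least 1 array of each comparison. In Sk_muscle the count lower was near the share of all genes. Cct2, a chaperonin subunit, was 3.51-fold lower in Brain than in Ect and 3.65-fold lower in Liver than in End. Vbp1, a prefoldin subunit, was 4.76-fold lower in Liver than in End. Of 18 general and mitotic microtubule proteins, 9 were lower in Brain than in Ect, 16 in Liver than in End and 11 in Sk_muscle than in Pme. Higher were 3, 0 and 1, beside the same shares of all genes (13.8%, 16.1% and 15.4% lower, 12.3%, 11.3% and 11.2% higher). Tpx2, a spindle assembly factor, was at least 13.6-fold lower in Brain, at least 12.3-fold lower in Liver and at least 13.6-fold lower in Sk_muscle. Stmn1, which destabilizes microtubules, was 43.0-fold lower in Liver and at least 44.5-fold lower in Sk_muscle. In Brain it was not called, with 3187 against 3791.5 in Ect. Clip1, a linker at growing microtubule ends, went against this group and was 11.7-fold higher in Sk_muscle than in Pme. So did Map7 (at least 4.91-fold), Clasp2 (3.45-fold) and Mapre2 (3.40-fold), which were higher in Brain than in Ect.

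Among neuronal microtubule proteins, 14 of 20 were called higher in Brain and 8 of 20 in Ect, the first against Liver and Sk_muscle and the second against SK7_ESC. Against SK7_ESC, Ect had 8 of 20 genes higher and 1 lower, and End and Pme each had 2 higher and 1 lower. Of all genes, 6.62%, 4.89% and 6.74% were higher and 4.89%, 3.81% and 4.55% lower in Ect, End and Pme. The counts in End and Pme, and the count lower in Ect, were near those shares. Against both other layers, Ect was higher for 6, against 1.82% of all genes. Map2, a protein of dendrites, had 3138 in Brain, 479.1 in Ect and 32.9 in SK7_ESC, a difference between Ect and SK7_ESC of at least 9.58-fold. Kif5c, a kinesin of neurons, was 7.27-fold, Dpysl3, a phosphoprotein of growing axons, 6.24-fold and Dpysl2, a protein of axon growth, 6.12-fold higher in Ect than in SK7_ESC. Each of these was also called higher in another layer. The 2 higher in End were Dpysl3 (7.69-fold) and Dpysl2 (2.39-fold), and the 2 higher in Pme were Dpysl2 and Kif5c. Stmn2, a regulator of microtubules in axons, went the other way and was 2.64-fold lower in Ect, where it read 483.4, with 1054 for End and 118.5 for Pme, against 1275 for SK7_ESC. In Brain, 14 of 20 were higher than in Liver and Sk_muscle (10.8% of all genes). Set against Ect, 12 were higher in Brain (12.3%) and 2 were lower (13.8%), Dpysl5 by 3.88-fold and Dpysl3 by 2.74-fold. Mapt, the axonal protein tau, had 893.3 in Brain and 18.7 in Ect, and was at least 17.9-fold higher in Brain.

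Of 24 listed enzymes and partners of tubulin modification, 21 were measured. Against SK7_ESC, only Vash2, which removes the terminal tyrosine of α-tubulin, was higher in Ect and Pme, and only Hdac6, a deacetylase of α-tubulin, was called otherwise. In each layer 1 of 21 was thus higher, against 6.62% (Ect), 4.89% (End) and 6.74% (Pme) of all genes. Lower were 1, 0 and 1, against 4.89%, 3.81% and 4.55%. These counts are near those shares. The signal of Hdac6 was 244.9 for Ect, 1633 for End and 191.9 for Pme, against 497.3 for SK7_ESC, so that it was 3.28-fold higher in End, 2.03-fold lower in Ect and 2.59-fold lower in Pme. Vash2 read 177.2 in Ect and 148.2 in Pme, against 59.0 in SK7_ESC, and was 2.51-fold higher in Pme. Ttll7, a glutamylase of β-tubulin tails, had 922.4 in Brain, 2.2 in Liver and 1054 in Sk_muscle, against between 9.2 and 27.5 in the 4 cultured samples. It was at least 18.4-fold higher in Brain than in Ect and at least 21.1-fold higher in Sk_muscle than in Pme. Agtpbp1, which shortens the added glutamate chains, was 8.69-fold higher in Brain than in Ect and 4.49-fold higher in Sk_muscle than in Pme. Other genes of this list were lower, and Ttll4 was at least 5.91-fold lower in Brain than in Ect. Against the layer of their lineage, 5 of the 21 were higher in Brain, 1 in Liver and 3 in Sk_muscle (12.3%, 11.3% and 11.2% of all genes). Lower were 4, 5 and 5 (13.8%, 16.1% and 15.4%). Of 16 measured genes of microtubule nucleation and severing, Ect had 3 higher and 1 lower than SK7_ESC, End 0 and 1, and Pme 2 and 1, where 6.62%, 4.89% and 6.74% of all genes were higher and 4.89%, 3.81% and 4.55% lower. A single gene lower is near those shares. Fign, a severing enzyme, was at least 4.23-fold higher in Ect and at least 3.40-fold higher in Pme. Lower in the tissue than in the layer of its lineage were 8 in Brain, 6 in Liver and 7 in Sk_muscle, against 13.8%, 16.1% and 15.4% of all genes. Higher were 1, 0 and 0, against 12.3%, 11.3% and 11.2%.

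**Figure D4:**
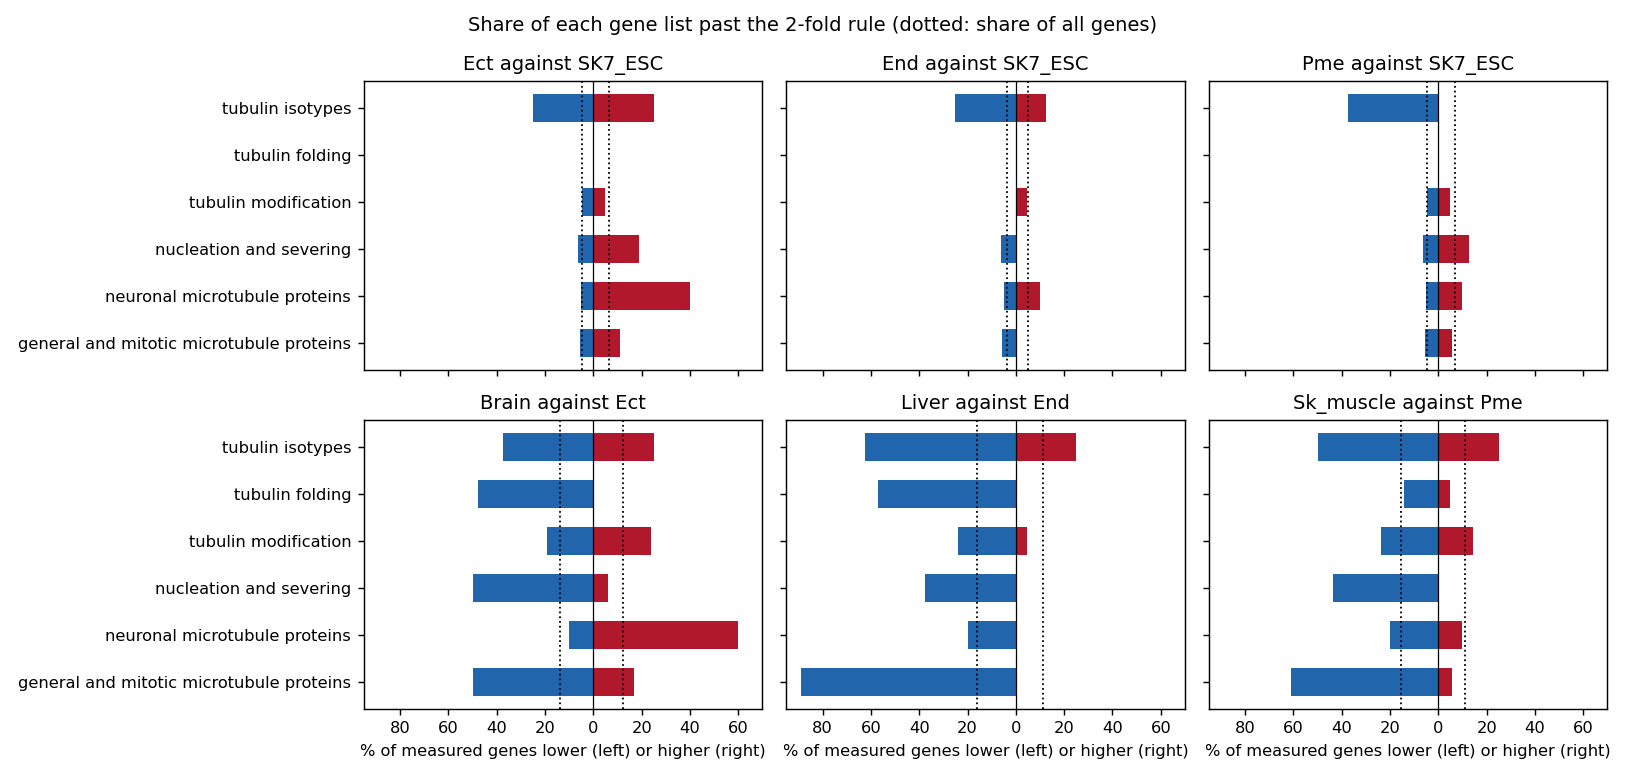
Share of the measured genes of 6 lists (lines) that were higher (right, red) or lower (left, blue) by the 2-fold rule in 6 comparisons (panels), in percent, with 1 array per sample; dotted lines give the shares of all genes. For neuronal microtubule proteins 8 of 20 were higher in Ect than in SK7_ESC, and for general and mitotic proteins 16 of 18 were lower in Liver than in End.

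Over the 7 arrays, Tubb2b and Tubb5 had the most similar profiles among the isotypes, with a Pearson correlation of 0.955 between log2 signals floored at 50. Tuba1a correlated at 0.862 with Tubb2b and at 0.823 with Tubb5, whereas Tuba4a correlated at -0.842 with Tubb5 and at -0.785 with Tubb2b. The 7 points include cultured and adult samples, so that differences between these groups enter the values. The groups were not cleanly apart for every isotype. Tuba1a in Brain (4263) lay among the cultured samples. As deposited, Tuba4a in SK7_ESC was 1.51-fold under Brain and 4.25-fold over End. For each isotype, the 3 most similar of 6070 other genes with at least a 4-fold range were found in the same way. Tuba4a was closest to Klf9, a transcription factor gene (0.986), Chchd10, a gene of a mitochondrial protein (0.978), and Ghitm (0.970). Chchd10 had 2343 in Brain, 6810 in Liver and 11563 in Sk_muscle, against 32.5 in Ect, 577.6 in End, 28.0 in Pme and 4519 in SK7_ESC, and so was lowest in the same layers. Tuba8 was closest to Tnnt1, the troponin T of slow muscle (0.999), with 410.1 in Sk_muscle and 162.3 in End and the other 5 arrays under background, then to Shisa2 (0.985) and Afap1l1 (0.959). Tuba8 was itself at or near the floor of 50 outside Sk_muscle and End, so these correlations rest on those 2 arrays. Tubb3 was closest to Grik3, a kainate receptor gene (0.966), Pantr1 (0.965) and Tox2 (0.964). Tubb2a was closest to Mal2, Plxnc1 and Kcnn2, each at 0.978. For Tubb5 these were Khdrbs1, Kpnb1 and Sqle, between 0.990 and 0.993, for Tubb2b Scrib, 2410002F23Rik and Hnrnpl, between 0.989 and 0.993, for Tuba1a Fbxo42, Trp53bp1 and Atpif1, between 0.984 and 0.988, and for Tubb6 Fkbp9, Qars and Kank2, between 0.978 and 0.984.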

How the data were processed

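Expression was measured on 7 arrays, 1 per sample, with 45101 probe sets. The deposited values are linear intensity values, and the paper states that the average of each array was set to 100. As deposited, the mean over all probe sets was 141.2 (Brain), 191.9 (Liver), 204.2 (Sk_muscle), 159.3 (Ect), 159.8 (End), 157.3 (Pme) and 162.6 (SK7_ESC). How probes were summarised was not given in the sources used here, and the labels and methods name different RNA kits. The array medians were 25.0 (Brain), 19.4 (Liver), 19.1 (Sk_muscle), 18.2 (Ect), 16.2 (End), 18.4 (Pme) and 15.6 (SK7_ESC). The platform annotation gave 1 gene symbol for 34958 probe sets and several for 932, with 9211 unnamed here; 34754 matched RefSeq GRCm38.p6 genes by Entrez identifier, and 0 symbols changed. The probe set of each gene with the highest mean log2 signal (floor 0.1) was used. Ratios were computed with a floor of 50 and called at 2-fold in 12 comparisons; where 2 arrays are the reference, the call was required against both. The code that makes the calls was tested on simulated data, which checks the code and not the reliability of a call here. The members and lists were chosen with earlier results of these data known. 1 array per group leaves no replicate to compare, and the small number of arrays limits precision. Genes named are all isotypes, other tubulins above background, up to 4 of each list with large ratios either way, and the 3 most similar genes; Syp, Acta1, Mb, Mki67 and Top2a illustrate marker lists. Computation used pandas 2.3.3 and numpy 2.4.6 under Python 3.11.15, and figures matplotlib 3.10.9. Alternatives were a background of 20, quantile normalization, median scaling, the geometric mean of probe sets (floor 1), leaving out probe sets marked s, x or a, and a 3-fold rule; choosing the probe set after flooring at 50 was added after seeing the data.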

Additional observations from a re-analysis of the deposited data

Results flagged for a closer look

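The same contrast went opposite ways in different samples for 3 isotypes, and none of these differences was tested, since each rests on 1 array per sample. Tubb3 against SK7_ESC had log2 ratios of 2.63 and -1.22 in Ect and End, and of 2.63 and -1.22 in Ect and Pme, where the negative values are bounds set by the floor of 50. Tubb2b against SK7_ESC had 1.10 and -1.09 in Ect and Pme, both close to the 2-fold rule. For Tuba8, the adult tissue against the layer of its lineage gave 3.34 and -1.94 for Sk_muscle against Pme and Liver against End, both of them bounds.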

How the results depend on the processing

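No paired analysis was possible because each group holds 1 array. Leaving out a replicate was not possible either. Counts of the isotypes are given as number under the alternative, against the number as reported. With the 3-fold rule, Ect over SK7_ESC had 1 higher and 1 lower (against 2 and 2), Ect over the other layers 1 higher (against 2), End and Pme 1 lower each than SK7_ESC (against 2 and 3), Pme 0 lower than the other layers (against 1) and Sk_muscle 1 higher than the other tissues (against 2). With a background of 20, Brain was lower for 1 (against 0) and Liver for 2 (against 1) than the other tissues. After quantile normalization Brain was lower for 1 (against 0) and Sk_muscle higher for 1 (against 2) than the other tissues. With median scaling, 1 was higher in Ect than in SK7_ESC (against 2) and 1 was lower in Ect than in the other layers (against 0). With the geometric mean, 1 was lower in Ect than in SK7_ESC (against 2), 1 higher in End than in the other layers (against 2) and 1 higher in Sk_muscle than in the other tissues (against 2). Without probe sets marked s, x or a, which leaves 7 isotypes and drops Tuba1a, 1 was higher in Brain than in Ect (against 2), 2 in Brain than in the other tissues (against 4) and 1 in Liver than in End (against 2), and lower were 0 in Liver (against 1) and 0 in Sk_muscle (against 1) than in the other tissues. There the log2 ratio of Tubb5 in Brain to the brighter tissue turned to -0.73, from another probe set. Choosing the probe set after flooring left all 24 counts within 1.5 times. Scaling to the same median moved the median log2 ratio over all genes, without the floor, to -0.14 in Ect (0.08 as deposited) and -0.19 in Pme (0.05) against SK7_ESC, and to -0.46 (0) for Brain against Ect and -0.21 (0.05) for Liver against End, and quantile normalization moved it to -0.21 for Brain against Ect and to -0.03 in Ect and -0.06 in Pme against SK7_ESC. Genes higher among those called were then 41.7% in Ect and 43.2% in Pme against SK7_ESC (57.5% and 59.7% as deposited), 54.9% in Brain against the other tissues (72.6%), 68.7% in End against the other layers (58.3%) and 31.0% in Brain against Ect (47.1%). After quantile normalization, the share in Brain against the other tissues was 62.5%. The cause of these differences was not tested, and signals near 50 limit what can be called.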

Other observations

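The probe sets shared by Tuba3a and Tuba3b, α-tubulin genes known from testis, were brightest in ES cells. The brighter there had 81.4 in Brain, 4.6 in Liver and 24.1 in Sk_muscle, against 68.9 in Ect, 82.7 in End, 52.6 in Pme and 465.8 in SK7_ESC, and the other had 141.6, 38.7 and 2.5 in the tissues, 233.1, 208.4 and 132.2 in Ect, End and Pme and 368.9 in SK7_ESC. The identifier of the first ends in x_at and that of the other in s_at. The part of other sequences in either signal was not tested. The 1 probe set for Tuba3b alone was under background in each array, with its highest signal of 8.3 in SK7_ESC.

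Stmn2, known from neurons, had 1204 in Brain, 1054 in End and 1275 in SK7_ESC, while Map2 had 3138 in Brain, 9.8 in End and 32.9 in SK7_ESC. Dcx, which encodes doublecortin of migrating neurons, was under background in all 7 arrays, with its highest signal of 26.9 in Ect.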
